A study of Homo sapiens with 6 samples.

Results

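The older ERVL elements outside MLT2 were taken as all repeat loci whose name starts with ERVL, or belongs to LTR16, LTR33, LTR40, LTR41, LTR50, LTR52, LTR53, LTR55 or LTR57, or to MER21, MER54, MER68, MER70, MER74 or MER76. They comprised 6882 of 433837 listed loci and 57 of 5230 repeat names, of which 11 were names of internal parts and 46 of long terminal repeats (LTRs). RNA was counted over repeats in HEK293T, an embryonic kidney cell line of human origin, in 6 libraries. In the U7 ASO group (3 libraries, genotype given as U7 snRNA knockdown) the cells received a chimeric antisense oligonucleotide (ASO) against U7 small nuclear RNA at 100 nM. In the control ASO group (3 libraries, genotype given as WT) they received an ASO against GFP, whose dose is not given separately. Both groups were transfected with a Lipofectamine reagent, and total RNA was freed of ribosomal RNA before sequencing. All libraries come from 1 cell line, and the design text calls the 3 libraries of a group biological replicates. Gene rows are not part of these counts, so the cell line was not checked against marker genes.

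ERVL elements are remnants of a class of endogenous retroviruses distantly related to foamy viruses, and many of those treated here entered the genome before the radiation of placental mammals. An intact provirus has an internal part, which encodes the viral proteins, between a pair of LTRs, which carry the promoter and the polyadenylation signal. Most old copies are now single LTRs or fragments with many mutations, and their RNA often comes from longer transcripts that run across them. U7 RNA pairs with replication-dependent histone pre-mRNAs and directs the cleavage of their 3′ ends. The title of the series asks whether it also represses HERV1/LTR12 elements, and LTR12 and HERV9, a family of another retroviral class, serve below as landmarks.

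Reads in all repeat loci numbered 2089822, 2348997 and 2819540 in the U7 ASO libraries and 2025985, 1926892 and 1980793 in the control libraries. The 16 listed loci named U7 held between 4 and 10 reads in a U7 ASO library and between 6 and 12 in a control library, too few to check the depletion. Of 463 tested LTR12 and HERV9 loci, 328 (70.8%) were raised with the U7 ASO.

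As a whole, the older ERVL elements gave similar amounts of RNA in both groups. They held 15085, 19024 and 21697 reads in the U7 ASO libraries and 12880, 12857 and 15278 in the control libraries. These were 0.722%, 0.810% and 0.770% of repeat reads with the U7 ASO and 0.636%, 0.667% and 0.771% with the control ASO. The third control library lay above 2 of the U7 ASO libraries, so the groups overlapped. Exact (Clopper-Pearson) 95% intervals, which cover counting error only, spanned 0.710% to 0.821% over the U7 ASO libraries and 0.625% to 0.784% over the controls. In CPM, the counts scaled to the size of the library with TMM factors, the sum was 7544 ± 395 in U7 ASO libraries and 7055 ± 272 in control libraries (mean ± SD, n = 3 each), a ratio of 1.07. In these bulk libraries, more cells with an RNA and more RNA per cell cannot be told apart.

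Internal parts and LTRs differed in where their libraries fell. Names of internal parts summed to 1147, 1215 and 1427 CPM with the U7 ASO and 964, 956 and 1106 CPM with the control ASO, so that every U7 ASO library was above every control library (ratio of means 1.25). LTR names summed to 5945, 6606 and 6292 CPM with the U7 ASO and 5932, 5944 and 6263 CPM with the control ASO, and these overlapped (ratio 1.04). Both kinds of locus were also divided by their distance to LTR12 and HERV9 loci, measured in the running number that ends each locus identifier. Internal-part loci within 20 numbers of a listed LTR12 or HERV9 locus held 223 ± 52.3 CPM in U7 ASO libraries and 24.0 ± 7.40 CPM in control libraries. The other internal-part loci held 1040 ± 155 CPM in U7 ASO libraries and 985 ± 90.8 CPM in control libraries, and there the groups overlapped. LTR loci showed the same split, with 245 ± 51.4 CPM in U7 ASO libraries and 86.2 ± 13.2 CPM in control libraries near a listed LTR12 or HERV9 locus. Elsewhere they held 6036 ± 359 CPM in U7 ASO libraries and 5960 ± 198 CPM in control libraries. An LTR12 or HERV9 locus is listed only if it has a read, and 70.7% of those listed had reads in U7 ASO libraries alone. The split by distance therefore carries no test and is no independent support.

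**Figure D1:**
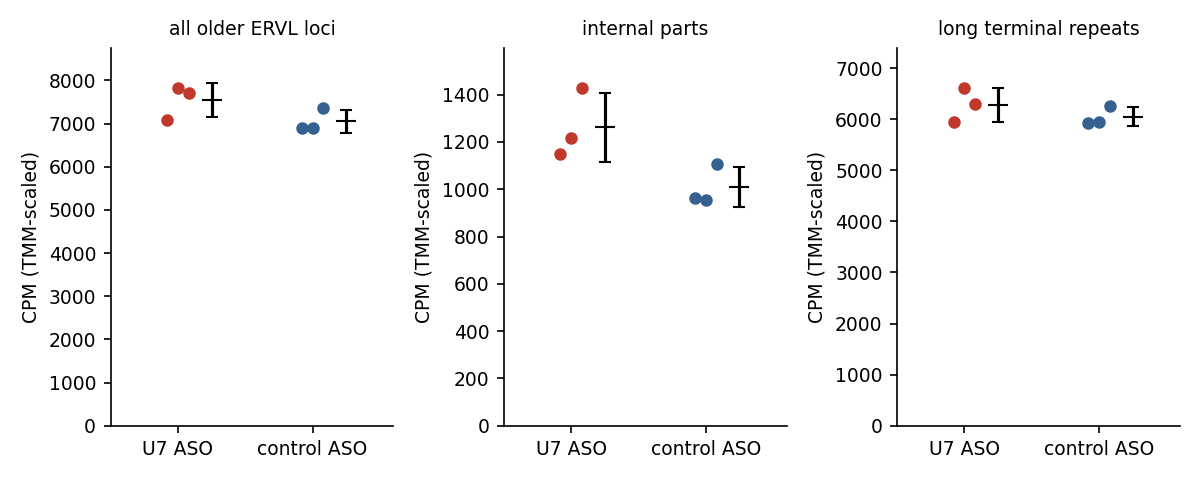
Summed level (CPM, scaled by the trimmed mean of M-values, axis from 0) of all older ERVL loci, of their internal parts and of their long terminal repeats, with 1 point per library and the mean ± SD (n = 3) beside it. The U7 ASO and control ASO libraries overlap in the first and the third panel and are separate for internal parts, where they run from 1147 to 1427 and from 956 to 1106 CPM.

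The RNA was spread over many sparsely covered loci. The median older ERVL locus had 6 reads over the 6 libraries, and 187 loci (2.72%) had a read in all of them. A U7 ASO library covered 1891 to 2539 of the loci with a read, against 1513 to 1785 in a control library, with more repeat reads in the U7 ASO libraries. Reads were seen in U7 ASO libraries alone at 47.1% of the loci and in control libraries alone at 26.1%. Over all listed repeat loci these shares were 45.7% and 26.8%. The 10 loci with the most reads took 11.8% of the reads of the set. LTR16 and MER21 were the most abundant groups, with 22.6% and 21.2% of the reads, followed by ERVL-named elements with 11.4% and LTR33 with 10.8%. A single locus could still carry a name, since the leading locus held more than 50% of the reads in 7 names, among them LTR40A1 with 92.5%, LTR40b with 78.1% and MER68B with 76.4%.

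Counts summed over the loci of each name were tested in edgeR with all 2236 testable repeat names. MER76-int was raised and LTR40A1 was lowered (1.75% each of the 57 names), and the other 55 did not pass at a Benjamini-Hochberg adjusted p under 0.05. Of all tested names 1.52% were raised and 1.03% were lowered, so both shares were near the background. An unadjusted p under 0.05 was found for 6 of the 57. The U7 ASO libraries all lay above the controls for 7 of the 57 names and all below for 4 of the 57. Over all 2236 tested names, these shares were 9.93% and 10.2%. The median log2 fold change (U7 ASO over control ASO) was 0.10 over the 57 names and −0.01 over all names. For 37 of the 57 the 95% interval lay within a 2-fold change either way, and for the others the interval reached beyond it.

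**Figure D2:**
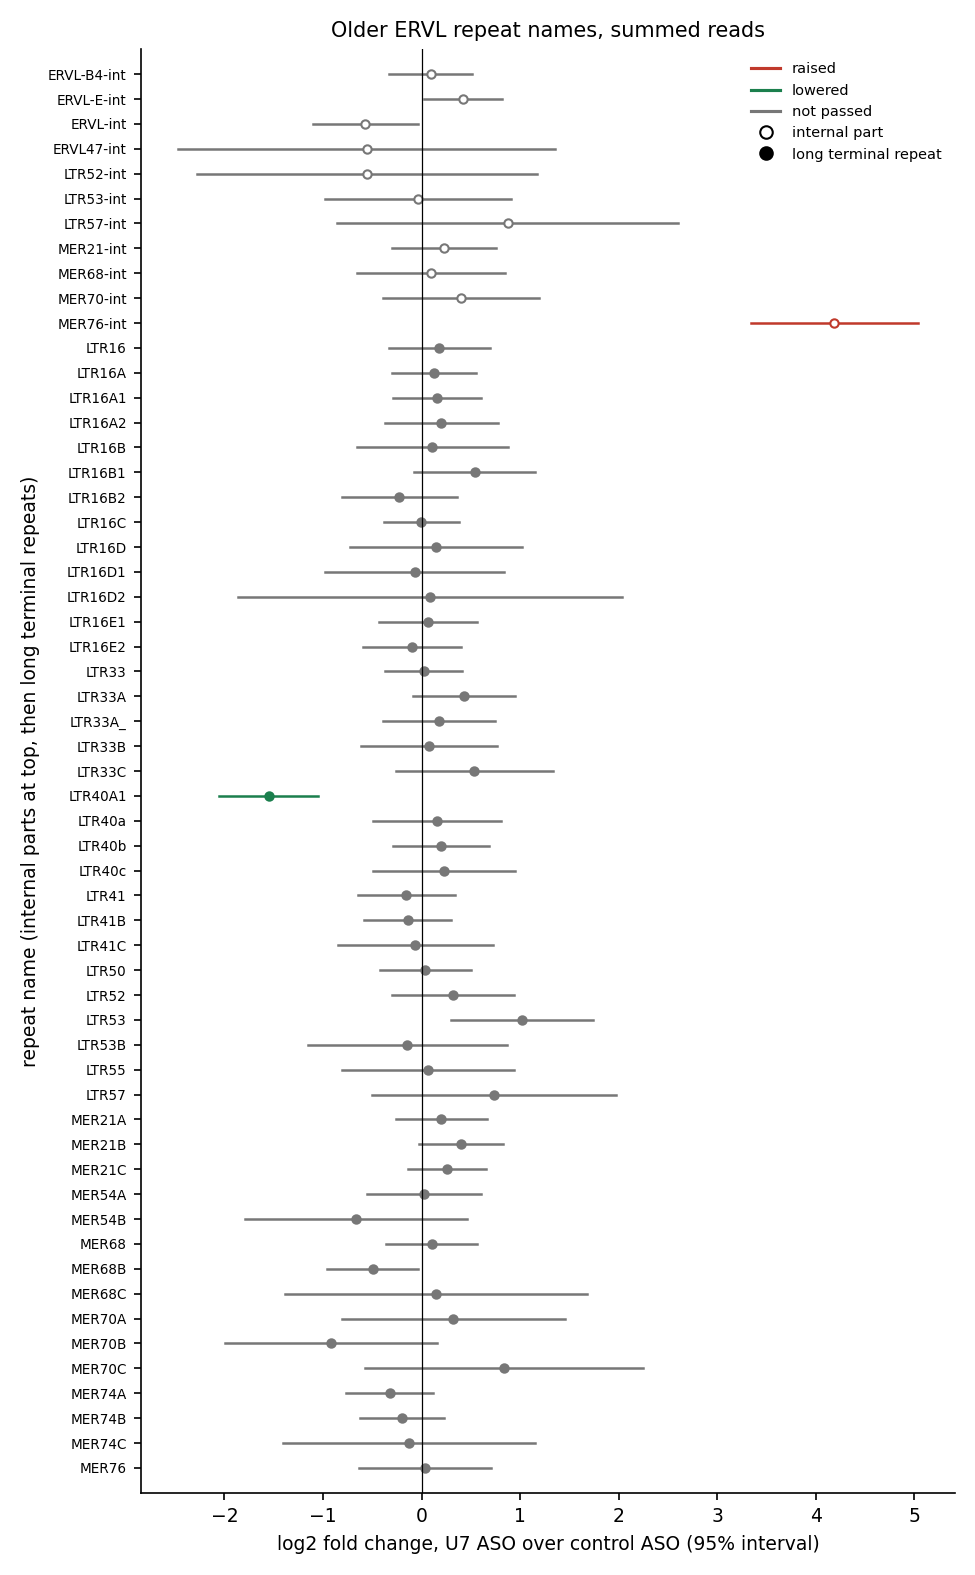
Log2 fold change, U7 ASO over control ASO, with its 95% interval for the 57 names (internal parts at the top as open circles, long terminal repeats below as filled circles, n = 3 libraries a group). MER76-int lies apart at 4.19 and LTR40A1 at −1.55, while 4 of the other intervals exclude 0 and none of those names passed the adjusted threshold.

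Among the internal parts, ERVL-E-int and ERVL-B4-int were the most abundant. ERVL-E-int, an internal part of ERVL-E elements, had 463, 541 and 578 CPM with the U7 ASO and 343, 408 and 430 CPM with the control ASO. Its groups did not overlap, but the difference did not pass (log2 fold change 0.42, SE 0.19, adjusted p = 0.309, edgeR). ERVL-int had 87.4, 68.2 and 82.2 CPM with the U7 ASO and 123, 99.8 and 130.2 CPM with the control ASO, the opposite order, also without passing (log2 fold change −0.57, SE 0.25, adjusted p = 0.300). The 3 libraries of ERVL-B4-int overlapped between groups, at 268 ± 31.0 CPM with the U7 ASO and 251 ± 24.3 CPM with the control ASO. The sparse names LTR57-int (log2 fold change 0.87) and ERVL47-int (log2 fold change −0.56) had wide intervals that included 0.

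MER76-int, the internal part of MER76 elements, had 147, 78.1 and 129 CPM in the U7 ASO libraries and 9.10, 6.98 and 3.38 CPM in the control libraries. The lowest U7 ASO library was far above the highest control. The log2 fold change was 4.19 (SE 0.40, 95% interval 3.34 to 5.03, adjusted p = 8.4e-07, edgeR). The LTR name MER76 did not pass, with a log2 fold change of 0.03 (adjusted p = 0.98). Of the 15 listed MER76-int loci, 5 lie in 1 stretch of running numbers, and these held 825 reads, or 95.3% of the name's reads with the U7 ASO, and 10 reads with the control ASO. The other 10 loci held 0, 19 and 22 reads with the U7 ASO and 11, 9 and 7 reads with the control ASO, and these overlapped. When members within 20 running numbers of any LTR12 or HERV9 locus that was raised were left out, MER76-int had a log2 fold change of 0.19 (adjusted p = 0.966, edgeR) and was no longer called. The 5 loci of the stretch were among those left out, so this loss follows from the reads above and is no independent support.

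That stretch follows an LTR12C locus, LTR12C_dup132_3954119, which had 148, 65 and 180 reads with the U7 ASO and 0 in each control library. It holds 7 member loci with 390, 240 and 419 reads in the U7 ASO libraries and 6, 11 and 0 reads in the control libraries. MER76-int_dup3_3954127, at 8 numbers after the LTR12C locus, had 147, 85 and 133 reads with the U7 ASO and 0, 2 and 0 with the control ASO. Its ratio was 167 (exact 95% interval 46.0 to 1387, counting error only), with an adjusted p of 4.7e-05 in edgeR.

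The neighbours moved the same way. MER76-int_dup4_3954128 had 70, 57 and 109 reads with the U7 ASO and none with the control ASO, at least 72.1-fold higher against a floor of 3 reads over the group (adjusted p = 1.1e-04). MER76-int_dup2_3954126 had 79, 22 and 86 reads with the U7 ASO and none with the control ASO, at least 57.2-fold higher (adjusted p = 6.4e-04). The LTR fragment MER76_dup26_3954133, at 14 numbers, had 38, 35 and 24 reads with the U7 ASO and none with the control ASO, at least 29.6-fold higher (adjusted p = 0.0036). Leaving out U7 ASO replicate 1 or 2 ended its call.

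A fragment of another group lies between them. MER68-int_dup11_3954129, an internal part of MER68, had 39, 34 and 54 reads with the U7 ASO and 0, 7 and 0 reads with the control ASO (log2 fold change 3.95, SE 1.06, adjusted p = 0.048, edgeR). Its call was lost in 10 of 17 alternatives, among them each that left out a U7 ASO library. MER76-int_dup5_3954130 did not have enough reads for the test, with 8, 0 and 0 reads with the U7 ASO and 6, 2 and 0 with the control ASO. A primate L1 fragment in the same stretch, L1PA16_dup557_3954125, was also raised, with 34, 19 and 34 reads with the U7 ASO and none with the control ASO. Rows of the stretch are neighbours in the running number only, and whether 1 transcript covers them was not tested.

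**Figure D3:**
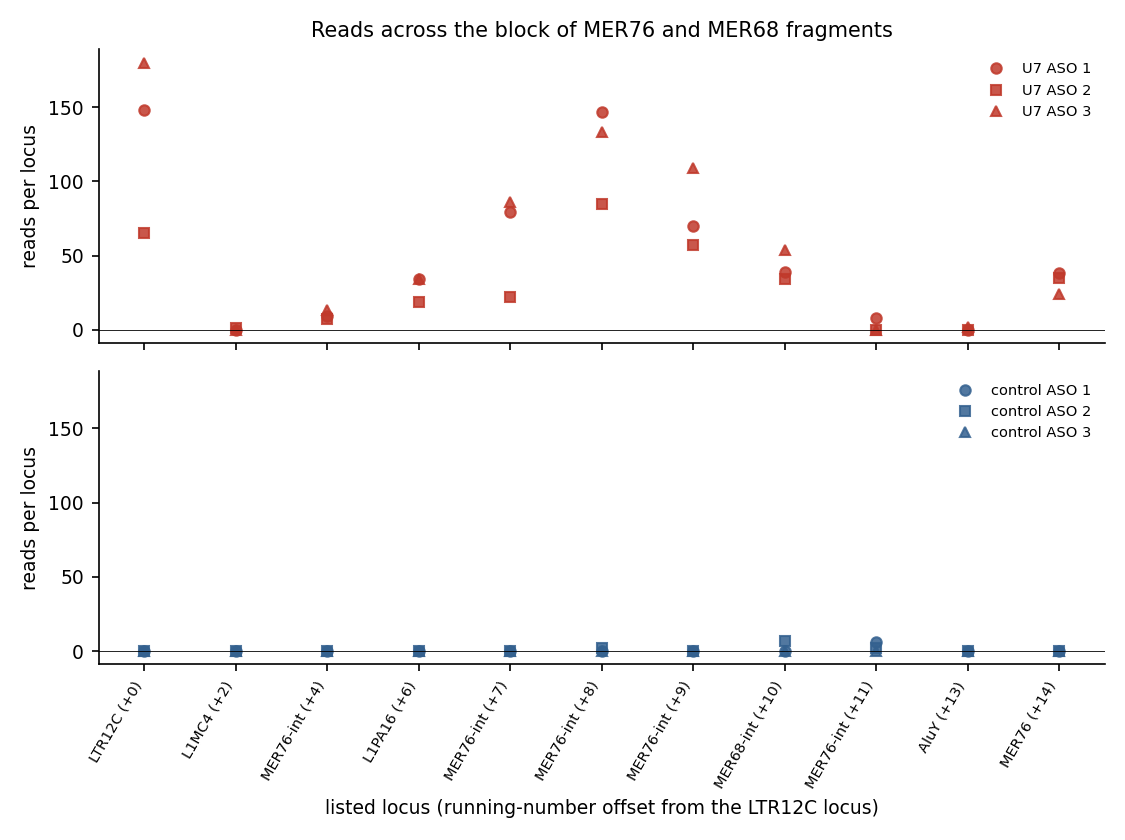
Reads per library (1 symbol per replicate) at each listed locus of the stretch, ordered by running-number offset from the LTR12C locus, with the U7 ASO libraries above and the control ASO libraries below on the same linear scale. The U7 ASO libraries reach 147 reads at the member loci, while no control library exceeds 7.

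Counted by locus, 195 of the 6882 listed loci (2.83%) passed the count filter. Of these, 9 were raised (4.62%), 1 was lowered (0.513%) and 185 did not pass in edgeR with adjustment over 14380 loci. The background was 4.49% raised and 0.473% lowered over all tested loci, and 2.28% raised over loci outside LTR12 and HERV9. The filter admits a locus without control reads only where the U7 ASO libraries hold enough reads, so the raised share belongs to tested loci alone. Beside these, HERVL and MLT2, which are further ERVL names, had 4 raised of 53 tested loci (7.55%). The MaLR elements, relatives of ERVL that include MLT1, MST and THE1, had 26 of 523 (4.97%). The differences between these shares were not tested. By type, 6 of 35 tested internal-part loci and 3 of 160 tested LTR loci were raised. Of those 6 internal-part loci, 4 are neighbours in the MER76 stretch, and the difference between the types was not tested. All 3 U7 ASO libraries lay above the controls at 23 of the 195 tested member loci and below at 15 of the 195, against 12.2% and 8.36% of all tested loci. The median log2 fold change was 0.12 over the member loci and 0.06 over all tested loci.

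The 9 raised loci fall into 5 neighbourhoods, and 5 of the loci are those of the MER76 stretch. No more than 7 control reads were counted at any of them. LTR53_dup20_399742, an LTR fragment, had 129, 44 and 45 reads with the U7 ASO and 0, 2 and 0 with the control ASO, a ratio of 99.9 (exact 95% interval 27.3 to 830, adjusted p = 7.2e-04), and its call was lost in limma-voom and without U7 ASO replicate 1. It lies 18 numbers from a raised LTR12C locus with 1059, 550 and 695 reads with the U7 ASO and 0, 0 and 20 with the control ASO, and 6 of the 8 tested loci within 20 numbers of LTR53_dup20_399742, that LTR12C locus among them, were raised. This locus made 79.1% of the difference of the LTR53 name, which had 111, 59.2 and 62.6 CPM with the U7 ASO and 24.6, 47.8 and 42.0 CPM with the control ASO (log2 fold change 1.02, SE 0.35, adjusted p = 0.151).

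The remaining 3 had no control read at all. MER21-int_dup4_4126879, an internal part of MER21, had 19, 26 and 48 reads with the U7 ASO, at least 28.4-fold higher (adjusted p = 0.0053), and is next to an LTR12C locus with 8, 8 and 4 reads with the U7 ASO and none with the control ASO. ERVL-E-int_dup123_4751465 had 39, 22 and 23 reads with the U7 ASO, at least 25.7-fold higher (adjusted p = 0.0071), and lies 8 numbers from an LTR12C locus with 3, 14 and 20 reads with the U7 ASO and none with the control ASO. Neither LTR12C locus had enough reads for the test.

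MER54A_dup35_5008030, an LTR fragment of MER54, had 28, 20 and 34 reads with the U7 ASO, at least 25.1-fold higher (adjusted p = 0.0077). It was the farthest from an LTR12 locus of the 9, at 27 numbers from a raised LTR12C locus with 147, 116 and 110 reads with the U7 ASO and none with the control ASO. These 3 calls rest on few reads. Each was lost in limma-voom and without U7 ASO replicate 1 or 3, and those of ERVL-E-int_dup123_4751465 and MER54A_dup35_5008030 also without U7 ASO replicate 2.

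Most raised loci were thus near LTR12 or HERV9. Of the 11 tested member loci at most 20 numbers from a listed LTR12 or HERV9 locus, 8 were raised, and of the 184 farther ones 1 was raised and 1 lowered. Near an LTR12 or HERV9 locus that was itself raised, 6 of 6 tested member loci were raised. In both counts, 5 of the raised loci are neighbours in the MER76 stretch, beside 1 LTR12C locus, and are not independent. The count filter favours raised calls at member loci near LTR12 or HERV9 too. An LTR12 locus is also listed only if it has a read, so these counts carry no test. The shares among tested loci of other families near LTR12 or HERV9 are not given here. Some loci of other families beside raised members were raised too, such as L1PA16_dup557_3954125, so these counts show no trait particular to the members. Summed over all listed loci, the 243 member loci (3.53%) near a listed LTR12 or HERV9 locus had 468 ± 82.3 CPM in U7 ASO libraries and 110 ± 20.6 CPM in control libraries, a ratio of 4.24. The other members had 7076 ± 477 CPM in U7 ASO libraries and 6945 ± 289 CPM in control libraries, a ratio of 1.02. This contrast is no independent support, because listing itself needs a read and 70.7% of the listed LTR12 and HERV9 loci had reads in U7 ASO libraries alone. The MER76 stretch held 1049 of the 3405 U7 ASO reads of those 243 loci.

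Closeness was not always matched by a call, as 3 of the 11 tested member loci near a listed LTR12 or HERV9 locus were not raised. LTR16E2_dup66_956930 had 10, 6 and 32 reads with the U7 ASO and 10, 14 and 18 with the control ASO, with the groups overlapping. Its LTR12C neighbour had 262, 351 and 300 reads with the U7 ASO and 268, 246 and 326 with the control ASO, and did not pass either. MER21B_dup43_5107764 had 0, 20 and 18 reads with the U7 ASO and 8, 17 and 2 with the control ASO. LTR16C_dup47_5283196 had 11, 40 and 5 reads with the U7 ASO and 18, 3 and 10 with the control ASO. The groups overlapped at both, and the nearest LTR12 locus of each had too few reads for the test.

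**Figure D4:**
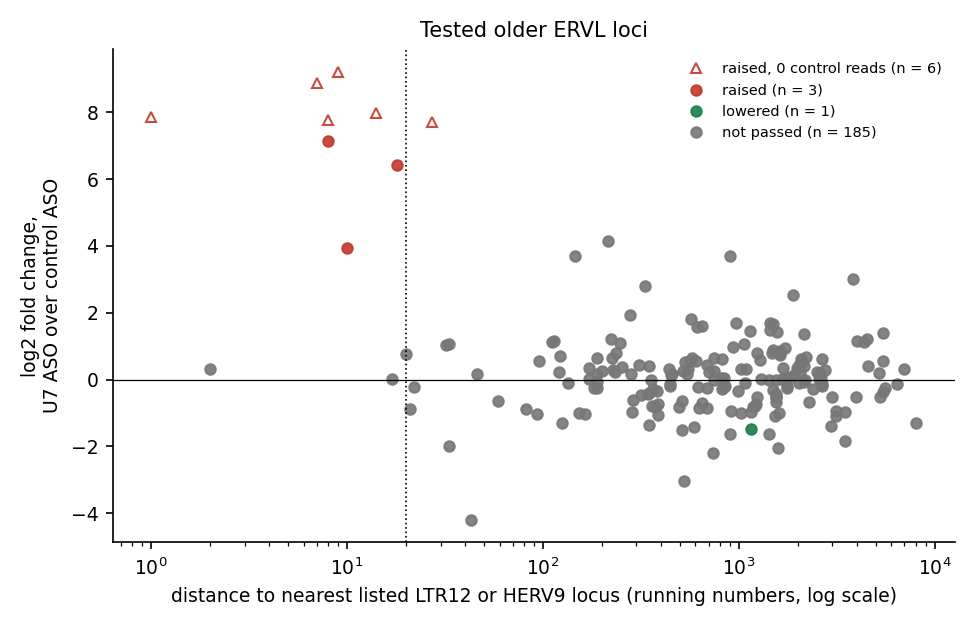
Log2 fold change of the 195 tested member loci against the running-number distance to the nearest listed LTR12 or HERV9 locus (log axis), with the window of 20 as a dotted line. Raised loci lie at distances up to 27, open triangles mark fitted values of loci with 0 control reads, which depend on the prior count, and the lowered locus lies farther out.

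LTR40A1, an LTR name of LTR40 elements, was lower with the U7 ASO. It had 58.8, 60.4 and 62.3 CPM in the U7 ASO libraries and 194, 188 and 150 CPM in the control libraries, without overlap (log2 fold change −1.55, SE 0.24, 95% interval −2.05 to −1.05, adjusted p = 3.8e-04, edgeR). Its 19 listed loci did not share the change. LTR40A1_dup34_673938 had 120, 128 and 137 reads with the U7 ASO and 354, 334 and 288 with the control ASO, and made 99.8% of the difference (log2 fold change −1.47, SE 0.28, adjusted p = 0.0047). The other 18 loci had 5, 19 and 38 reads with the U7 ASO and 8, 16 and 24 with the control ASO, and these overlapped. Without the leading locus the log2 fold change of the name was −0.04 (adjusted p = 0.99), and the call was lost. The call of the locus itself was lost without control ASO replicate 2 and without U7 ASO replicate 2 or 3, with adjusted p-values from 0.0514 to 0.0546.

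The 2 loci with reads just before it had the same order of groups. LTR16C_dup184_673937, the next member down in running number, had 64, 86 and 53 reads with the U7 ASO and 138, 134 and 95 with the control ASO (log2 fold change −0.97, adjusted p = 0.24). AluJr_dup3199_673936, which is no member, had 68, 70 and 49 reads with the U7 ASO and 149, 129 and 101 with the control ASO (log2 fold change −1.13, adjusted p = 0.12). Neither passed, although the groups did not overlap at either locus. Whether the 3 loci lie in 1 transcript was not tested.

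**Figure D5:**
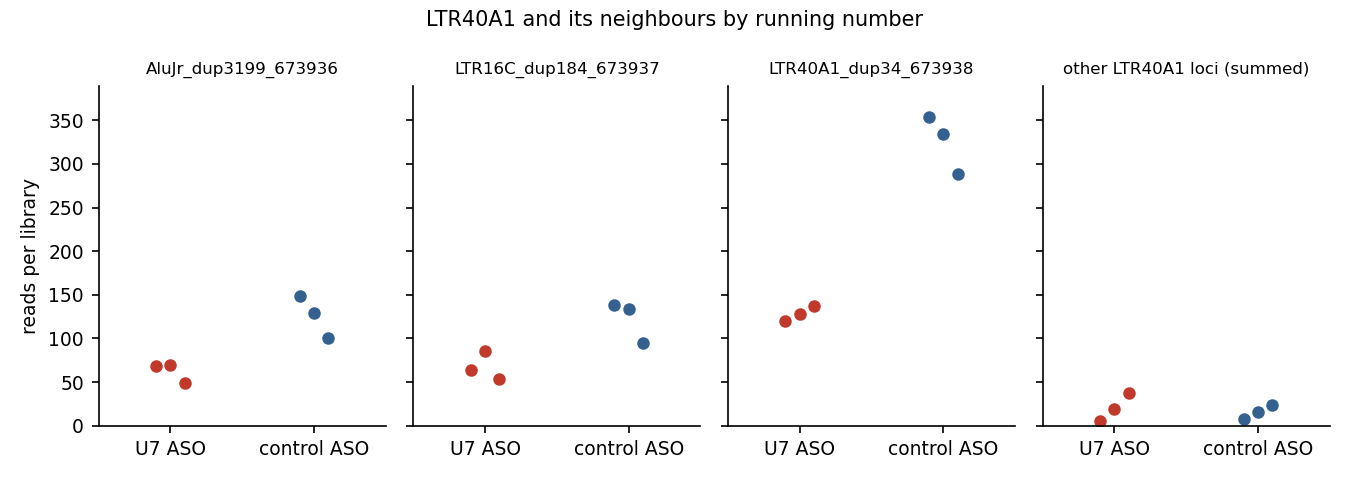
Reads per library (linear axis from 0) at LTR40A1_dup34_673938, at 2 loci just before it in running number and summed over the other 18 LTR40A1 loci, with 1 point per library. The U7 ASO libraries are below the control ASO libraries at the 3 single loci and overlap with them in the sum.

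None of the abundant LTR names passed. MER21C, with the most listed loci of any name (758), had 729 ± 148 CPM with the U7 ASO and 609 ± 40.4 CPM with the control ASO (log2 fold change 0.26, adjusted p = 0.58). MER21B had 563 ± 104 CPM with the U7 ASO and 427 ± 78.7 CPM with the control ASO (log2 fold change 0.40, 95% interval −0.03 to 0.83, adjusted p = 0.389). The groups overlapped for both. LTR33 had 500 ± 44.9 CPM with the U7 ASO and 493 ± 53.9 CPM with the control ASO, and LTR16C had 466 ± 41.9 CPM with the U7 ASO and 467 ± 19.9 CPM with the control ASO. Their 95% intervals, −0.37 to 0.41 for LTR33 and −0.38 to 0.38 for LTR16C on the log2 scale, lay within a 2-fold change. LTR16A and LTR41B also had overlapping groups, with log2 fold changes of 0.13 and −0.14.

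The libraries overlapped between groups in 11 of the 16 groups of names. All 3 U7 ASO libraries lay above the controls for MER76 (ratio of means 2.89) and LTR57 (1.73), and all below for LTR40 (0.803), MER68 (0.891) and MER74. Among all tested names, the libraries lay all above in 9.93% and all below in 10.2%, and no such share was taken over groups of names. The MER76 group includes the loci of the MER76 stretch, and the LTR40 group includes LTR40A1_dup34_673938. The MER74 names summed to 444, 439 and 437 CPM with the U7 ASO and 519, 519 and 539 CPM with the control ASO, a ratio of 0.836 with no overlap. Neither abundant name passed: MER74A had 204 ± 7.96 CPM with the U7 ASO and 255 ± 43.3 CPM with the control ASO (log2 fold change −0.32, adjusted p = 0.519), and MER74B had 225 ± 7.57 CPM with the U7 ASO and 259 ± 35.3 CPM with the control ASO (log2 fold change −0.20). MER68B, carried mostly by 1 locus, had 129 CPM with the U7 ASO and 182 CPM with the control ASO on average (log2 fold change −0.50, adjusted p = 0.30). That locus, MER68B_dup9_5116136, had 221, 238 and 198 reads with the U7 ASO and 267, 313 and 296 with the control ASO, without overlap and without passing (adjusted p = 0.51). Among sparse names, MER70C and LTR57 had log2 fold changes of 0.84 and 0.74, and MER54B and MER70B of −0.66 and −0.92, and none of these passed.

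Of the 10 loci with the highest mean CPM, LTR40A1_dup34_673938 was lowered, as given above, and the other 9 did not pass. LTR40b_dup18_2221712 had 231, 413 and 297 reads with the U7 ASO and 222, 183 and 280 with the control ASO (log2 fold change 0.34, adjusted p = 0.83). LTR41B_dup24_3582439 and LTR41B_dup25_3582440 have consecutive running numbers and log2 fold changes of 0.17 and −0.08. LTR41_dup15_5001233, MER21B_dup2_5177201, MER74B_dup1_2906480, MER74B_dup51_2902931 and LTR16C_dup92_4694389 had log2 fold changes from −0.68 to 0.26. Of the 10 loci, the groups of libraries were separate at LTR40A1_dup34_673938 and MER68B_dup9_5116136, both given above, and at LTR16C_dup92_4694389. LTR16C_dup92_4694389 had 103, 115 and 45 reads with the U7 ASO and 117, 121 and 159 with the control ASO, and did not pass (adjusted p = 0.607, edgeR).

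The 5 most negative fold changes among tested loci all missed the threshold. LTR33_dup194_5126839 had 0, 4 and 0 reads with the U7 ASO and 32, 12 and 32 with the control ASO (log2 fold change −4.21, SE 1.27, adjusted p = 0.089). LTR50_3456292 had 36, 30 and 2 reads with the U7 ASO and 114, 76 and 108 with the control ASO (log2 fold change −2.20, SE 0.66, adjusted p = 0.089). Both had separate groups and missed the threshold, LTR33_dup194_5126839 passed in DESeq2 and without U7 ASO replicate 2, and LTR50_3456292 passed in DESeq2, in limma-voom, with halved counts and with the replicate block. LTR33_dup124_100591, LTR33A__dup65_3429558 and LTR16E2_dup8_4314558 had log2 fold changes of −3.05, −2.04 and −1.98 and did not pass (adjusted p-values from 0.325 to 0.353).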

How the data were processed

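Per the labels' protocols, total RNA was extracted with TRIzol, depleted of ribosomal RNA and made into libraries with a total RNA kit. The deposited values are read counts over repeat loci, in a table for each library. The submitters' processing notes name featureCounts 1.5.0-p1 (Subread), STAR 2.5.3a, FastQC 0.11.5 and GRCh38. The sources used here do not give strand, multi-mapping or pair settings, and coordinates and sequences were not analysed here. Even numbers made up 79.1% to 82.8% of the members' counts above 0, so both mates of a pair may have been counted. Counts are therefore called reads, and if mates were counted, the lower bounds on folds would be smaller and the exact intervals wider than printed. Reads of similar copies may be misplaced.

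Names were read from the identifiers, and counts were tested per locus and summed per name in edgeR 4.0.16 (R 4.3.3; quasi-likelihood, two-sided, TMM scaling, filterByExpr minimum count 10 and total 15), with Benjamini-Hochberg adjustment over all features tested. Standard errors were derived from the F statistics. Where a group had 0 reads, the lower bound on the fold was taken against 3 reads over the group, and the fits used the counts unchanged. Alternatives used limma 3.58.1, DESeq2 1.42.0, other scalings and filters, halved counts, a replicate block and left-out libraries. The code was tested on simulated data. Members, lists and the naming rule (called names and loci, the 10 most abundant and the 5 largest and 5 smallest fold changes at each level, and the leading locus of each called name) were chosen with earlier results of these data known. MER68B, MER76, the MER74 sum, the loci of the MER76 stretch that were not tested, the neighbours of LTR40A1_dup34_673938 and LTR16E2_dup66_956930 were named after their values were seen. The same holds for MER21B_dup43_5107764 and LTR16C_dup47_5283196.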

Additional observations from a re-analysis of the deposited data

How the results depend on the processing

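The calls of MER76-int and LTR40A1 both held in 17 of 20 alternatives. The raised name was lost (0 raised) without loci near a raised LTR12 or HERV9 locus. Without loci near any listed one, an alternative added after the data were seen, MER76-int did not pass the count filter and was not tested (0 raised). The lowered name was lost (0 lowered) without the leading locus. The 9 raised loci became 4 with limma-voom and 4 with halved counts (73 loci tested). Without 1 library they became 3 to 10 (3 without U7 ASO replicate 1, 5 without U7 ASO replicate 2). Over the alternatives that kept all libraries, the count ran from 1 to 11. Leaving out loci near a raised LTR12 or HERV9 locus left 3 of the 9, and leaving out those near any listed one left 1. Loci were not fitted again for these 2 counts, which follow from the distances given above. The count of 1 lowered locus became 3 with DESeq2, 2 with limma-voom, 2 with halved counts and 2 with the replicate block. It was 0 to 1 without 1 library (0 without U7 ASO replicate 3 or control ASO replicate 2). Without U7 ASO replicate 2 the lowered locus was LTR33_dup194_5126839, and LTR40A1_dup34_673938 lost its call. MER68-int_dup11_3954129 lost its call in 10 alternatives, and MER76-int_dup2_3954126, MER76-int_dup3_3954127 and MER76-int_dup4_3954128 in none of theirs. Over the named features, no called value changed direction.

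Same-numbered libraries correlated at 0.11, −0.03 and 0.12 in their deviations from the group means, and differently numbered ones at −0.15 to 0.06. These few values cannot decide whether the numbers pair the libraries, and the labels do not say so. The replicate block raised the names called among all names to 59 raised and 74 lowered, against 34 and 23. Without 1 library, all names gave 25 to 46 raised and 8 to 76 lowered, and all loci 293 to 624 raised and 16 to 41 lowered; over the other alternatives, the names gave 26 to 59 raised and 7 to 74 lowered, and the loci 341 to 791 raised and 38 to 151 lowered. Upper-quartile scaling and library totals shifted the median of all loci by −0.15 and −0.16 (log2), and the members' median to −0.03 and −0.05. The members' share differed by 0.0756 percentage points between groups, and by 0.0478 to 0.116 without 1 library. Apart from the alternatives' own construction, causes were not tested. Depth limits the locus level, where 2.83% of members had enough reads for a test.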
